A study of Mus musculus with 18 samples.

Results

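Neuronal and neural progenitor genes were followed in mouse embryonic stem cells (ESCs) in which endogenous HDAC1 and HDAC2 could be deleted and replaced by wild-type HDAC1 or by HDAC1 with a substitution on the surface that corepressor proteins bind. The 36 genes were chosen by symbol from the 53672 genes counted in every library. They were picked as Rest, neuronal genes taken to be repressed by its protein, and neural progenitor genes, with earlier results of these data known. They comprise Rest, 4 neural progenitor genes, and genes of the neuronal cytoskeleton (11), secretory granules (6), synaptic vesicles (9), RNA binding (2) and the cell surface, matrix or transmitter synthesis (3), and 32 of the 36 had enough counts to be tested among 18791 genes. The cells were E14TG2a ESCs, a mouse line grown on gelatine with leukaemia inhibitory factor, in which both Hdac1 and Hdac2 alleles are flanked by lox sites (Hdac1/2 lox/lox). Each of 3 lines carried a stable HDAC1-Flag transgene, HDAC1–Y48E, HDAC1–E63R or the wild type (HDAC1-WT), and was sequenced untreated and after 4-hydroxytamoxifen (OHT), which activates Cre and deletes the endogenous genes. The labels give 1 µM OHT for 5 days, whereas the methods describe a shorter exposure followed by further culture. Every group held 3 libraries, 18 in all. The untreated cells of all 3 lines therefore have the endogenous genes and the transgene, and there is 1 stably transfected line per construct, so a mutation and the line that carries it cannot be told apart. The labels number the libraries within a group but do not say what was replicated, so p-values measure only the spread between these libraries.

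REST (RE1-silencing transcription factor) is a zinc finger repressor that keeps neuronal genes low in cells that are not neurons. It binds a DNA element called RE1 and recruits SIN3 proteins through one end of the protein and the CoREST complex through the other, and both bring HDAC1 and HDAC2, with the histone demethylase LSD1 (encoded by Kdm1a) in CoREST. Many genes for synaptic vesicle proteins, secretory granule proteins, neurofilaments and ion channels lie near RE1 elements, and REST itself is abundant in ESCs and falls as neural progenitors become neurons. Sox1, Pax6, Nes and Neurog2 mark the progenitor stage that comes before these terminal neuronal genes.

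RE1-like sequences were searched because they are the element through which REST reaches its targets. The left part of the motif, CAGCACC, and the right part, GGACAG, were sought 2 bases apart on either strand. A RefSeq window of 300 bases around a transcription start (build GRCm38.p6) was held for 22 of the 36 members. With at most 2 mismatches, the limit set for this search, 1 of the 22 (4.55%) had a match, against 2.22% of 27025 genes. The same member had a match with at most 1 mismatch, against 0.211% of genes, and 0 of the 22 had an exact match, against 0.0407%. In the transcripts of GENCODE M21 (build mm10), 4 of 36 members (11.1%) had a match with at most 1 mismatch, against 3.08% of 21923 coding genes, and 2 members (Syp and Syt4) had an exact match, against 0.255%. Because the neuronal members were chosen as genes that REST represses, a share above that of all genes was favoured by the choice of list. It is not a result about these genes. The sites shown are those of Syp and Vgf, which had the largest rises among members called in the HDAC1–Y48E line, and of Celsr3 and Stmn3, which were not called after OHT. Each is written 5′ to 3′ on the strand of the motif, capitals mark bases that match it, and 3 flanking bases stand on each side of the coordinates given:
Syp, within transcript Syp-202, chrX:7638739-7638753, plus strand: ctcCAGCACCgtGGACAGagc
Vgf, within transcript Vgf-204, chr5:137030278-137030292, minus strand, 1 mismatch: cttCAGCACgctGGACAGcgc
Celsr3, promoter window, 125 bases before a RefSeq start, chr9:108825920-108825934, plus strand, 1 mismatch: gttCAGCACCgtGGgCAGcac
Stmn3, within transcript Stmn3-201, chr2:181314205-181314219, minus strand, 1 mismatch: cgcCAGCACCatGGcCAGcac
A match is a description of letters and no binding was measured. Where there was no match, these letters were not in the sequence searched, which left out introns and distal regions.

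The libraries held between 9019615 and 11454638 counts on genes. Values are CPM, counts scaled to a common library size after TMM normalization, and 3 counts, the number that a count of 0 still allows, came to between 0.248 and 0.343 CPM. This floor allows for counting error alone, since the protocols name no molecular identifiers and reads may be copies of each other. One library stood apart. Untreated HDAC1–E63R replicate 3 had a TMM factor of 0.814, against 0.955 to 1.11 elsewhere, and differed from its 2 replicates with a chi-square per degree of freedom of 56.6 and 62.7, against at most 7.21 for any other pair of replicates. Member calls, marker sums and list counts that rest on untreated HDAC1–E63R cells are therefore also given without it. All 18 pluripotency markers listed for ESCs were detected in every group. Their summed level was 10000 CPM in the untreated HDAC1-WT libraries, 7660 to 7750 CPM in the untreated HDAC1–Y48E libraries and 3470 to 3610 CPM after OHT in that line. Whole-gene counts could not check the deletion: Hdac1, whose counts would hold any mapped transgene reads, averaged 205 ± 4.98, 105 ± 8.82 and 101 ± 2.92 CPM (SD, n = 3) in the untreated HDAC1-WT, HDAC1–E63R and HDAC1–Y48E cells, and 174 ± 5.06, 122 ± 9.36 and 112 ± 1.49 CPM with OHT. Hdac2 averaged 195 ± 22.9, 177 ± 29.4 and 151 ± 2.41 CPM untreated and 124 ± 10.3, 153 ± 4.41 and 144 ± 6.66 CPM with OHT. Neither gene passed the limits for a call after OHT in any line (Hdac2 with HDAC1-WT, log2 fold change -0.66, adjusted p in edgeR = 0.0125).

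The members covered a wide range of levels in untreated HDAC1-WT cells. Per kilobase of exon, Tubb2b, a beta-tubulin of dividing and differentiating neurons, led with 143 ± 6.43 CPM per kb (SD, n = 3), followed by Stmn2, a microtubule regulator of growth cones, with 61.8 ± 2.12 and Rest with 35.4 ± 4.36. Tubb3, the neuron-specific beta-tubulin, came next with 23.7 ± 1.25. The synaptic vesicle gene Syp lay at 0.251 ± 0.102 and the progenitor factor Pax6 at 0.0947 ± 0.107 CPM per kb. Scg2, Scg5, Chgb, Rab3c and Neurog2 had no count in any untreated HDAC1-WT library, and 4 members (Scg2, Chgb, Rab3c and Neurog2) did not pass the filter on low counts. The member list is therefore mixed at the start, with tubulin, stathmin and Rest transcripts that are plentiful in ESCs and vesicle and granule transcripts near the floor. Tubb2b shares 96.4% of 1350 exon bases with Tubb2a, which leaves its level uncertain. Whether counting used the strand is not given in the sources used here, and Nefm and Nefl overlap on opposite strands over 19.2% and 32.8% of their exon bases, as does Syp with Gm14703 over 16.8%.

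**Figure D1:**
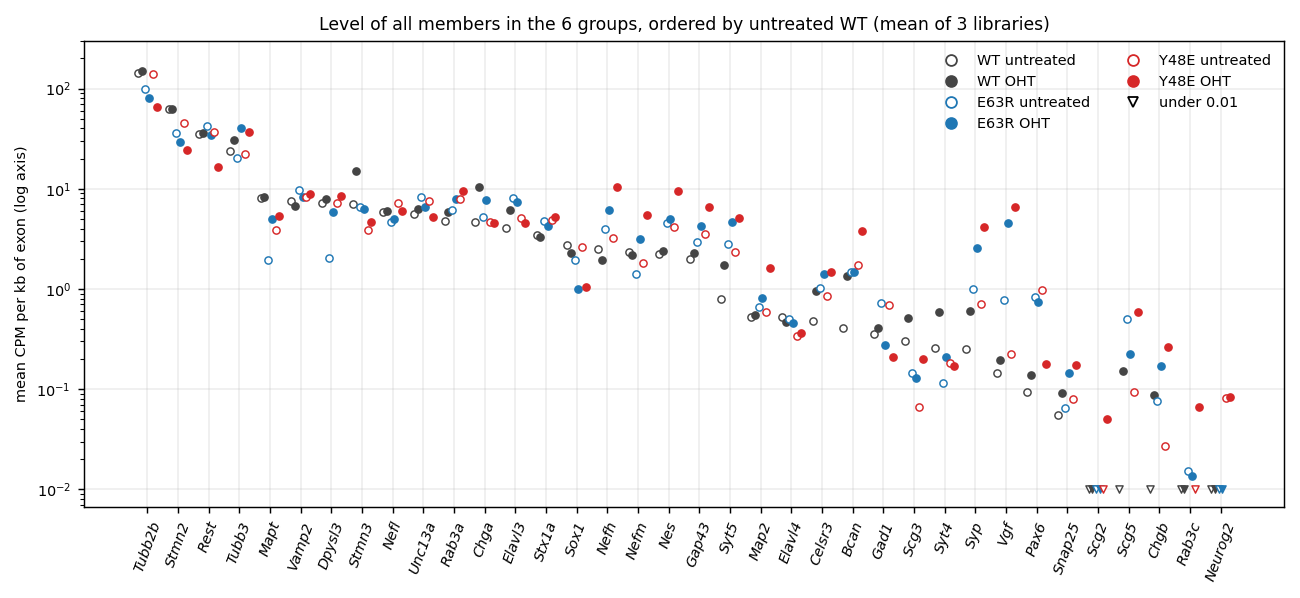
Mean level of all 36 members in the 6 groups in CPM per kilobase of exon (log axis), ordered by untreated HDAC1-WT cells; open points are untreated, filled points OHT-treated, and triangles lie under 0.01. Tubb2b, Stmn2, Rest and Tubb3 form the top of the range, and the groups separate most among low genes such as Syp, Vgf and Pax6.

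OHT changed few members in the HDAC1-WT line, more in the HDAC1–E63R line and most in the HDAC1–Y48E line. A member was called when its adjusted p was under 0.01 and its change more than 2-fold. With HDAC1-WT as the rescue, 2 of 32 tested members rose (Chga and Bcan; 6.25%) and 0 fell, against 0.0373% and 0.016% of all 18791 genes. At the looser limit of an unadjusted p under 0.05 there were 8 members. The share of all genes at that limit was not taken, so this count has nothing to be set against. With HDAC1–E63R, 5 rose (Nefm, Mapt, Dpysl3, Vgf and Syp; 15.6%, against 4.74% of all genes) and 0 fell (against 1.18%). With HDAC1–Y48E, 7 rose (Nefm, Nefh, Map2, Vgf, Syp, Bcan and Nes; 21.9%, against 10.8%) and 5 fell (Rest, Tubb2b, Gad1, Sox1 and Pax6; 15.6%, against 5.84%). Nefm, Vgf and Syp rose in both mutant lines. The other 17 tested members were called in none of the 3 lines. Because a gene passes the filter through any group in which it is high, these shares describe the tested members and not all 36. The members were also chosen with earlier results of these data known, so the shares beside those of all genes are a description only. Leaving out untreated HDAC1–E63R replicate 3 made the E63R calls 7 of 33 tested, by adding Tubb3 (higher) and Sox1 (lower), in a fit where 4.71% of all genes rose and 1.03% fell. A fit of only the 6 HDAC1–E63R libraries called 1 member, Mapt.

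The median log2 fold change of the tested members was 0.19, 0.14 and 0.28 in the HDAC1-WT, HDAC1–E63R and HDAC1–Y48E lines, beside 0, 0.03 and 0.05 over all tested genes. Without the fold limit, 2, 8 and 15 of the 32 members passed the adjusted p (0.0585%, 14.3% and 30.9% of all genes). The added members were Tubb3 (0.97), Tubb2b (-0.31) and Sox1 (-0.96) with HDAC1–E63R, and Stmn2 (-0.91), Tubb3 (0.75) and Unc13a (-0.51) with HDAC1–Y48E, all in log2 fold change. In bulk RNA, fewer cells of a type and less RNA per cell cannot be told apart, here and in each result that follows.

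**Figure D2:**
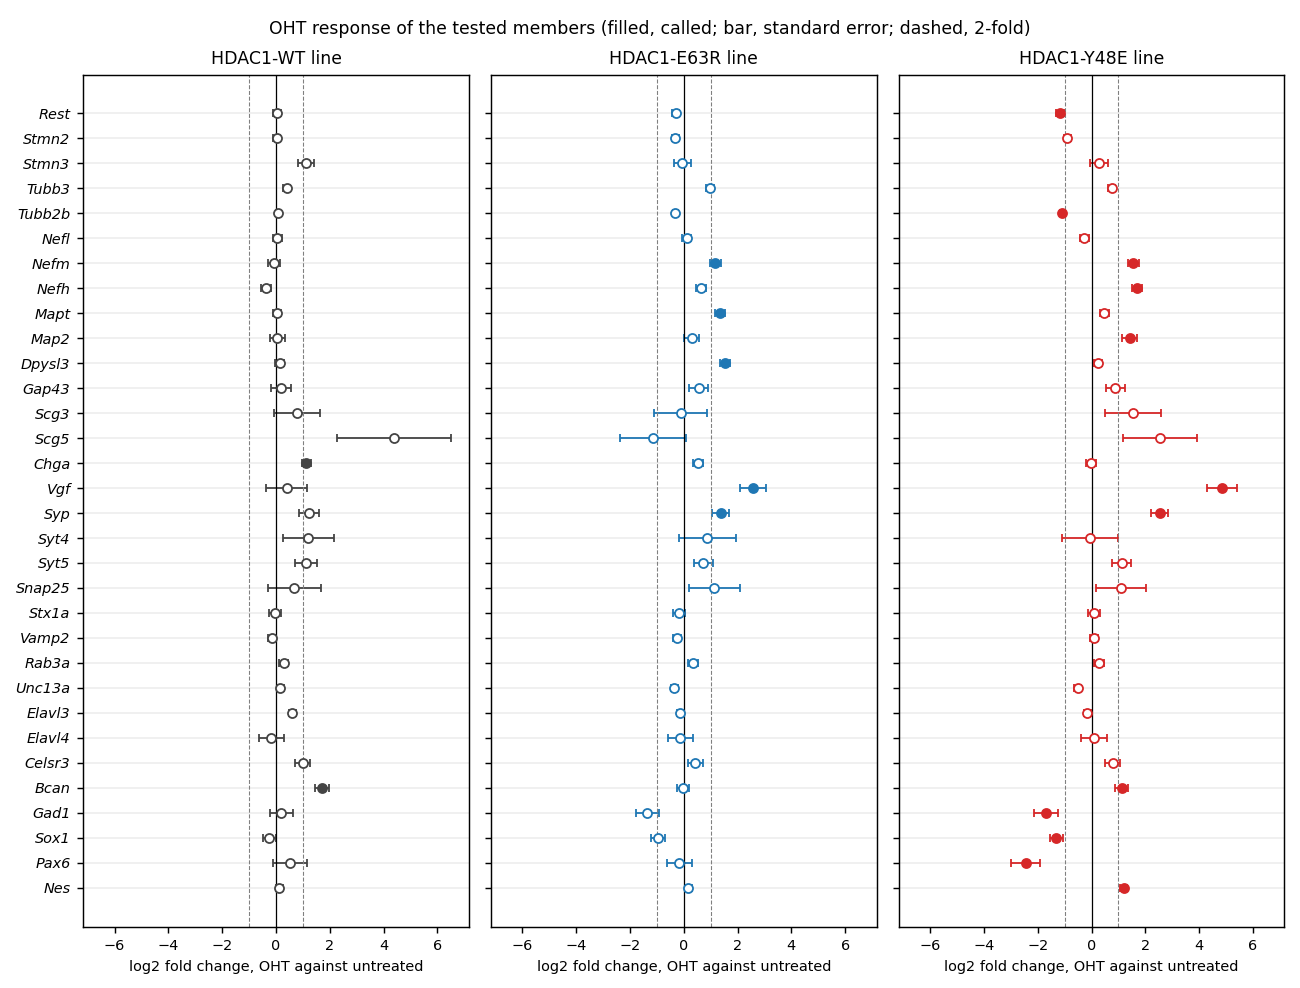
Log2 fold change of OHT-treated against untreated libraries for the 32 tested members in each rescue line; bars are standard errors, filled points are called members and dashed lines mark 2-fold. The HDAC1-WT line has 2 filled points, HDAC1–E63R has 5, all to the right, and HDAC1–Y48E has 7 to the right and 5 to the left.

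Rest transcripts were lower in OHT-treated HDAC1–Y48E cells than in every other group. Rest in the HDAC1-WT line gave 254, 225 and 288 CPM untreated and 247, 265 and 276 CPM with OHT. Rest in the HDAC1–E63R line gave 334, 361 and 210 CPM untreated and 260, 235 and 242 CPM with OHT. Rest in the HDAC1–Y48E line gave 244, 268 and 290 CPM untreated and 118, 116 and 122 CPM with OHT. The 3 OHT-treated HDAC1–Y48E libraries lay below all 15 others, whereas the groups of the other 2 lines overlapped. Rest (chr5:77265491-77286432, plus strand) fell 2.25-fold in the HDAC1–Y48E line (log2 fold change -1.17 ± 0.14 SE, adjusted p in edgeR = 9.4e-07). It did not pass in the HDAC1-WT line (log2 fold change 0.04, adjusted p in edgeR = 0.97) or the HDAC1–E63R line (log2 fold change -0.3, adjusted p in edgeR = 0.128). Without untreated HDAC1–E63R replicate 3, the low one of its group, Rest in the E63R line had a log2 fold change of -0.5 (adjusted p in edgeR = 2.64e-06), which is past the p limit and short of 2-fold.

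All 27 genes listed for REST and its corepressors, Rest among them, were tested, and 0 were called after OHT with HDAC1-WT as the rescue. Cells with HDAC1–E63R had 1 higher (3.7%, against 4.74% of all genes) and 0 lower (against 1.18%). Those with HDAC1–Y48E had 1 higher (3.7%, against 10.8%) and 1 lower (3.7%, against 5.84%). In a list of 27 genes 1 gene is 3.7%, so these counts are too small to set the list apart from all genes. The gene that rose in both mutant lines was Ctdsp1, a phosphatase that stabilizes the REST protein (log2 fold changes 1.09 and 1.35), and it was picked out after its values were seen. With untreated HDAC1–E63R replicate 3 left out, its E63R value was 0.89 (adjusted p in edgeR = 0.000456), short of 2-fold, and 0 genes of the list were called in that line. Rcor2, a CoREST scaffold abundant in ESCs, had 149 ± 3.59 CPM (SD, n = 3) in untreated HDAC1–Y48E cells and 99.4 ± 10.3 CPM with OHT, a log2 fold change of -0.59 (adjusted p in edgeR = 4.86e-05) that is short of 2-fold. Its value was 0.25 in the HDAC1-WT line (adjusted p in edgeR = 0.367) and -0.26 in the HDAC1–E63R line (0.0547). The mutant lines were not shown to differ in Rcor2 (difference -0.33, adjusted p in edgeR = 0.191). The other CoREST scaffold Rcor1 had a response to OHT of -0.02 in log2 in the HDAC1-WT line, -0.01 in the E63R line and -0.04 in the Y48E line. In the same order, the values of Kdm1a were -0.1, -0.28 and -0.16, and those of the SIN3 scaffold Sin3a were 0.22, 0.12 and -0.06. None of these 3 genes was called in any line. The E63R values of Rcor1, Kdm1a and Sin3a without untreated replicate 3 were -0.23, -0.26 and -0.07, and that of Rcor2 was -0.29. In that fit Kdm1a and Rcor2 passed the p limit short of 2-fold (adjusted p in edgeR = 0.00175 and 0.00698).

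The 11 cytoskeleton and neurite growth members moved in both directions. With HDAC1–E63R 3 rose and 0 fell (against 4.74% and 1.18% of all genes), with HDAC1–Y48E 3 rose and 1 fell (against 10.8% and 5.84%), and with HDAC1-WT 0 were called (against 0.0373% and 0.016%). Nefm and Nefh, 2 of the 3 neurofilament genes, which encode the intermediate filaments of axons, were among those that rose. Nefm in the HDAC1-WT line gave 10.8, 13.8 and 15.9 CPM untreated and 9.34, 16 and 12.8 CPM with OHT. Nefm in the HDAC1–E63R line gave 9.24, 8.47 and 6.63 CPM untreated and 19.5, 18 and 17.6 CPM with OHT. Nefm in the HDAC1–Y48E line gave 8.14, 12.9 and 10.8 CPM untreated and 32.3, 32.4 and 29.3 CPM with OHT. OHT-treated libraries of both mutant lines lay above their untreated libraries, and the HDAC1-WT groups overlapped. Nefm (chr14:68082590-68124846, minus strand), the medium neurofilament chain, rose 2.96-fold with HDAC1–Y48E (log2 fold change 1.56 ± 0.21 SE, adjusted p in edgeR = 3.17e-06) and 2.26-fold with HDAC1–E63R (log2 fold change 1.17 ± 0.21 SE, adjusted p in edgeR = 0.000377). Without untreated HDAC1–E63R replicate 3 the latter was 1.05 (adjusted p in edgeR = 0.000312). It was not called against OHT-treated HDAC1-WT cells, at 0.53 (adjusted p in edgeR = 0.0565), or in a fit of only the libraries compared, at 1.17 (adjusted p in edgeR = 0.0105).

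Nefh in the HDAC1-WT line gave 9.95, 10.7 and 9.6 CPM untreated and 6.07, 8.98 and 8.39 CPM with OHT. Nefh in the HDAC1–E63R line gave 16.4, 13.8 and 17.5 CPM untreated and 20.9, 28.6 and 24.4 CPM with OHT. Nefh in the HDAC1–Y48E line gave 13.5, 14.8 and 10.4 CPM untreated and 41.3, 44 and 39.4 CPM with OHT. The highest levels of Nefh (chr11:4938754-4948064, minus strand), the heavy chain, were in the OHT-treated HDAC1–Y48E libraries, all above the other 15. It rose 3.21-fold there (log2 fold change 1.68 ± 0.18 SE, adjusted p in edgeR = 1.19e-07), while the HDAC1–E63R line missed the limit (log2 fold change 0.63, adjusted p in edgeR = 0.0108), or passed it short of 2-fold without untreated replicate 3, at 0.7 (adjusted p in edgeR = 0.00468). Nefl was at 16.6 to 23.1 CPM untreated and 18.5 to 23.3 CPM with OHT in the HDAC1-WT line, 14.9 to 16.1 and 15.2 to 19.2 CPM in the HDAC1–E63R line, and 21.5 to 26.7 and 18 to 23.7 CPM in the HDAC1–Y48E line. Nefl, the light chain, was called in none of the 3 lines. Map2 (chr1:66175273-66442583, plus strand) encodes a microtubule-associated protein of dendrites. Map2 in the HDAC1-WT line gave 6.98, 9.06 and 10 CPM untreated and 10.2, 6.89 and 9.89 CPM with OHT. Map2 in the HDAC1–E63R line gave 16, 11.3 and 5.26 CPM untreated and 14.9, 14.2 and 11 CPM with OHT. Map2 in the HDAC1–Y48E line gave 11.5, 6.95 and 10.9 CPM untreated and 24.8, 29.7 and 24.6 CPM with OHT. Map2 was higher in the 3 OHT-treated HDAC1–Y48E libraries than in any other library, and untreated HDAC1–E63R replicate 3 was its lowest. It rose 2.69-fold with HDAC1–Y48E (log2 fold change 1.43 ± 0.28 SE, adjusted p in edgeR = 0.000323).

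Mapt and Dpysl3 rose in the HDAC1–E63R line from untreated levels that were low for the series. Mapt (chr11:104231390-104332090, plus strand) encodes tau, which stabilizes axonal microtubules, and Dpysl3 a collapsin response mediator of growth cone guidance. Mapt in the HDAC1-WT line gave 60.7, 64.2 and 59.1 CPM untreated and 64.5, 67.3 and 57 CPM with OHT. Mapt in the HDAC1–E63R line gave 14.8, 12.7 and 16.5 CPM untreated and 40.6, 36.3 and 35 CPM with OHT. Mapt in the HDAC1–Y48E line gave 39.5, 24.8 and 23.4 CPM untreated and 43.2, 45.8 and 32.4 CPM with OHT. The OHT-treated HDAC1–E63R libraries lay above their untreated ones but below all 6 HDAC1-WT libraries. Mapt rose 2.55-fold with HDAC1–E63R (log2 fold change 1.35 ± 0.18 SE, adjusted p in edgeR = 1.07e-05), and without untreated replicate 3 its log2 fold change was 1.44 (adjusted p in edgeR = 1.03e-08). Against OHT-treated HDAC1-WT cells the same libraries had a log2 fold change of -0.75 (adjusted p in edgeR = 0.00146), in the opposite direction. Dpysl3 in the HDAC1-WT line gave 52.5, 44.3 and 45.7 CPM untreated and 53.4, 52.2 and 50.1 CPM with OHT. Dpysl3 in the HDAC1–E63R line gave 16.1, 16 and 8.01 CPM untreated and 39.2, 41.6 and 34.7 CPM with OHT. Dpysl3 in the HDAC1–Y48E line gave 45.6, 46.7 and 50.5 CPM untreated and 52.9, 60.5 and 55.9 CPM with OHT. The untreated HDAC1–E63R libraries were the 3 lowest of the 18, with replicate 3 the lowest. Dpysl3 rose 2.87-fold with HDAC1–E63R (log2 fold change 1.52 ± 0.18 SE, adjusted p in edgeR = 1.98e-06), 1.26 (adjusted p in edgeR = 5.97e-10) in log2 without replicate 3. Against OHT-treated HDAC1-WT cells its log2 fold change was -0.43 (adjusted p in edgeR = 0.052).

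Tubb2b (chr13:34126748-34130466, minus strand) fell with HDAC1–Y48E. Tubb2b in the HDAC1-WT line gave 341, 328 and 312 CPM untreated and 339, 327 and 357 CPM with OHT. Tubb2b in the HDAC1–E63R line gave 234, 233 and 217 CPM untreated and 185, 181 and 185 CPM with OHT. Tubb2b in the HDAC1–Y48E line gave 329, 318 and 324 CPM untreated and 156, 149 and 149 CPM with OHT. OHT-treated HDAC1–Y48E libraries were the lowest, with a fall of 2.14-fold (log2 fold change -1.1 ± 0.08 SE, adjusted p in edgeR = 8.57e-10). In the HDAC1–E63R line the OHT-treated libraries were also below the untreated ones, by less than 2-fold (log2 fold change -0.31, adjusted p in edgeR = 0.00819), and without untreated replicate 3 the value was -0.35 (adjusted p in edgeR = 6.52e-05).

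The other cytoskeletal members were called in none of the 3 lines. Stmn2 and Stmn3 encode stathmins, which bind free tubulin, and Stmn3 holds an RE1-like sequence shown above. Stmn2 was at 337 to 360 CPM untreated and 335 to 379 CPM with OHT in the HDAC1-WT line, 168 to 266 and 160 to 167 CPM in the HDAC1–E63R line, and 243 to 263 and 121 to 144 CPM in the HDAC1–Y48E line. Stmn3 was at 5.9 to 9.02 CPM untreated and 13.8 to 20.2 CPM with OHT in the HDAC1-WT line, 4.29 to 11.7 and 5.3 to 8.19 CPM in the HDAC1–E63R line, and 3.42 to 5.71 and 3.96 to 6.62 CPM in the HDAC1–Y48E line. Stmn2 with HDAC1–Y48E passed the p limit short of 2-fold (log2 fold change -0.91, adjusted p in edgeR = 6.96e-06), and Stmn3 with HDAC1-WT did not pass (adjusted p in edgeR = 0.151). Tubb3 was at 41.9 to 46.5 CPM untreated and 52.3 to 62.7 CPM with OHT in the HDAC1-WT line, 29.7 to 46.1 and 72.1 to 78.5 CPM in the HDAC1–E63R line, and 37.4 to 46.7 and 63 to 73.1 CPM in the HDAC1–Y48E line. For Tubb3 the 6 OHT-treated mutant libraries were the highest of the 18, by a narrow margin over the OHT-treated HDAC1-WT libraries. Gap43 was at 2.81 to 3.35 CPM untreated and 2.12 to 4.17 CPM with OHT in the HDAC1-WT line, 2.37 to 7.55 and 5.79 to 7.24 CPM in the HDAC1–E63R line, and 4.9 to 6.16 and 8.07 to 12.6 CPM in the HDAC1–Y48E line. Gap43, which encodes a growth cone protein, had a log2 fold change of 0.88 with HDAC1–Y48E (adjusted p in edgeR = 0.044).

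Vgf (chr5:137026392-137033351, plus strand) had the largest fold change of any called member. It encodes a neuropeptide precursor packed into dense-core granules. Vgf in the HDAC1-WT line gave 0.186, 0.997 and 0.1 CPM untreated and 0.482, 0.635 and 0.618 CPM with OHT. Vgf in the HDAC1–E63R line gave 1.48, 1.69 and 3.77 CPM untreated and 8.28, 16.1 and 16.5 CPM with OHT. Vgf in the HDAC1–Y48E line gave 1.32, 0.569 and 0.108 CPM untreated and 14.7, 26 and 17.7 CPM with OHT. OHT-treated libraries of both mutant lines lay above every untreated and every HDAC1-WT library. Vgf rose 28.8-fold with HDAC1–Y48E (log2 fold change 4.85 ± 0.56 SE, adjusted p in edgeR = 4.15e-07) and 5.92-fold with HDAC1–E63R (log2 fold change 2.57 ± 0.47 SE, adjusted p in edgeR = 0.000422), or 3.09 (adjusted p in edgeR = 7.68e-07) in log2 without untreated replicate 3. The size of the first change is imprecise, because the untreated HDAC1–Y48E libraries held only 12, 5 and 1 counts, against 146, 287 and 197 with OHT. In the HDAC1-WT line the libraries held 2, 11 and 1 counts untreated and 5, 7 and 7 with OHT.

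Chga (chr12:102554969-102565028, plus strand), which encodes chromogranin A of the granule core, rose in the HDAC1-WT line and was called in neither mutant line. Chga in the HDAC1-WT line gave 13.3, 14 and 11.6 CPM untreated and 24.7, 28.6 and 32.1 CPM with OHT. Chga in the HDAC1–E63R line gave 15.1, 14 and 14.3 CPM untreated and 20.1, 24.8 and 18.4 CPM with OHT. Chga in the HDAC1–Y48E line gave 15, 8.88 and 14.3 CPM untreated and 13.1, 12.2 and 12.6 CPM with OHT. The OHT-treated libraries stood above the untreated ones in the HDAC1-WT line and in the HDAC1–E63R line (log2 fold change 0.54, adjusted p in edgeR = 0.0349, and 0.53 (adjusted p in edgeR = 0.0459) without untreated replicate 3), and the HDAC1–Y48E groups overlapped. The E63R response was not shown to differ from that with HDAC1-WT (difference -0.59, adjusted p in edgeR = 0.2). Chga rose 2.19-fold with HDAC1-WT (log2 fold change 1.13 ± 0.18 SE, adjusted p in edgeR = 0.00635). This call was lost whichever of the 6 HDAC1-WT libraries was left out. The remaining 4 granule members were near the floor. Scg5, a chaperone of prohormone convertase, had 3, 0 and 1 counts in untreated and 13, 4 and 12 counts in OHT-treated HDAC1–Y48E libraries. Scg3 was at 0.725 to 0.93 CPM untreated and 1.35 to 1.5 CPM with OHT in the HDAC1-WT line, 0.277 to 0.457 and 0.191 to 0.579 CPM in the HDAC1–E63R line, and 0 to 0.538 and 0.181 to 1.17 CPM in the HDAC1–Y48E line. Scg3, a granule-sorting secretogranin, was highest in OHT-treated HDAC1-WT cells, with 14, 15 and 17 counts. Chgb, the chromogranin B gene, had 2, 0 and 0 counts in untreated and 8, 8 and 7 counts in OHT-treated HDAC1–Y48E libraries, and Scg2, the secretogranin II gene, had 4 counts in all 18 libraries together.

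Of the 9 members for synaptic vesicles and their release, Syp rose in both mutant lines and the other 8 were called in none (4.74% of all genes rose with HDAC1–E63R and 10.8% with HDAC1–Y48E). Syp (chrX:7638471-7653256, plus strand) encodes synaptophysin, an abundant membrane protein of synaptic vesicles, and holds the exact RE1-like sequence shown above. Syp in the HDAC1-WT line gave 1.86, 1.27 and 0.8 CPM untreated and 2.79, 2.36 and 4.24 CPM with OHT. Syp in the HDAC1–E63R line gave 3.23, 5.08 and 7.32 CPM untreated and 11.8, 12.5 and 15.9 CPM with OHT. Syp in the HDAC1–Y48E line gave 2.75, 4.1 and 4.31 CPM untreated and 16.6, 23.7 and 24.5 CPM with OHT. In each line the OHT-treated libraries lay above the untreated ones. Syp rose 5.79-fold with HDAC1–Y48E (log2 fold change 2.53 ± 0.32 SE, adjusted p in edgeR = 1.28e-06) and 2.59-fold with HDAC1–E63R (log2 fold change 1.37 ± 0.31 SE, adjusted p in edgeR = 0.00222), and the HDAC1-WT line did not pass (log2 fold change 1.24, adjusted p in edgeR = 0.193). The OHT effect on Syp with HDAC1–E63R minus that with HDAC1-WT was 0.13 (adjusted p in edgeR = 0.933), so it was not shown to differ. Without untreated HDAC1–E63R replicate 3 the E63R value was 1.7 (adjusted p in edgeR = 4.91e-05), whereas without untreated replicate 1 it was 1.11 and without OHT-treated replicate 3 it was 1.23, both short of the limits (adjusted p in edgeR = 0.0153 and 0.0153).

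Syt5 was at 1.21 to 3.17 CPM untreated and 2.12 to 5.12 CPM with OHT in the HDAC1-WT line, 3.5 to 8.92 and 10.3 to 12 CPM in the HDAC1–E63R line, and 4.73 to 6.38 and 11.3 to 13.1 CPM in the HDAC1–Y48E line. Syt5 encodes a synaptotagmin, and its groups did not overlap in the HDAC1–Y48E line (log2 fold change 1.12 ± 0.35 SE, adjusted p in edgeR = 0.0133). It was called in that line by DESeq2, with no filter on low counts and with only that line's libraries. Its log2 fold change was also 1.11 in the HDAC1-WT line (adjusted p in edgeR = 0.303). The OHT effect on Syt5 with HDAC1–Y48E minus that with HDAC1-WT was 0.02, so it was not shown to differ. The HDAC1–E63R groups did not overlap either (0.72, adjusted p in edgeR = 0.137). Unc13a was at 64.8 to 75.4 CPM untreated and 77.5 to 82 CPM with OHT in the HDAC1-WT line, 93.1 to 121 and 69.9 to 93.2 CPM in the HDAC1–E63R line, and 89.3 to 104 and 58.3 to 73.9 CPM in the HDAC1–Y48E line. Unc13a, whose protein primes vesicles for fusion, passed the p limit with HDAC1–Y48E short of 2-fold (log2 fold change -0.51, adjusted p in edgeR = 0.00258). Rab3a was at 9.21 to 11.7 CPM untreated and 12.3 to 13.6 CPM with OHT in the HDAC1-WT line, 10.8 to 16.6 and 15.1 to 19.2 CPM in the HDAC1–E63R line, and 15.2 to 19.8 and 20.2 to 22.9 CPM in the HDAC1–Y48E line. Vamp2 was at 23.9 to 34.2 CPM untreated and 23.1 to 28.8 CPM with OHT in the HDAC1-WT line, 31.5 to 43 and 29.2 to 34.2 CPM in the HDAC1–E63R line, and 29 to 33.6 and 31.3 to 37.9 CPM in the HDAC1–Y48E line. Stx1a was at 7.72 to 11.6 CPM untreated and 7.71 to 9.98 CPM with OHT in the HDAC1-WT line, 11.4 to 14.1 and 10.3 to 13.1 CPM in the HDAC1–E63R line, and 10.6 to 16.2 and 11.4 to 15.8 CPM in the HDAC1–Y48E line. Rab3a, a vesicle GTPase gene, and the SNARE genes Vamp2 and Stx1a were detected in every library, and none had an adjusted p under 0.01 after OHT in any line. Snap25 was at 0.362 to 0.4 CPM untreated and 0.272 to 0.867 CPM with OHT in the HDAC1-WT line, 0.114 to 0.739 and 0.762 to 1.32 CPM in the HDAC1–E63R line, and 0 to 1.08 and 0.18 to 2.01 CPM in the HDAC1–Y48E line. Syt4 was at 0.372 to 1.81 CPM untreated and 2.0 to 2.56 CPM with OHT in the HDAC1-WT line, 0 to 1.13 and 0.0978 to 1.66 CPM in the HDAC1–E63R line, and 0.33 to 1.37 and 0.1 to 1.35 CPM in the HDAC1–Y48E line. Snap25, a neuronal SNARE gene, reached at most 20 counts in a library and Syt4, a synaptotagmin gene with the other exact RE1-like match, at most 29. Rab3c had 0 counts in all untreated HDAC1–Y48E libraries and 14, 1 and 10 with OHT, and it was not tested. The OHT mean was 2.41 times the untreated floor of 3 counts per library. That mean includes the library with 1 count, itself under the floor, so the ratio is not a lower bound. Rab3c also shares near-identical stretches with other genes, such as 203 bases with Gm47409 (97.0%), which leaves these counts uncertain.

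Neither RNA-binding member was called after OHT in any line. Elavl3 was at 24.6 to 30.6 CPM untreated and 39.3 to 49 CPM with OHT in the HDAC1-WT line, 48.7 to 60.6 and 45.8 to 58.5 CPM in the HDAC1–E63R line, and 33.2 to 37 and 29.8 to 32.8 CPM in the HDAC1–Y48E line. Elavl4 was at 1.8 to 3.81 CPM untreated and 2.21 to 2.91 CPM with OHT in the HDAC1-WT line, 1.69 to 3.77 and 1.72 to 2.9 CPM in the HDAC1–E63R line, and 1.02 to 2.26 and 1.53 to 2.51 CPM in the HDAC1–Y48E line. Elavl3 and Elavl4 encode related neuronal RNA-binding proteins. Of the 3 surface, matrix and transmitter members, Bcan rose and Gad1 fell with HDAC1–Y48E and Celsr3 was not called. Bcan encodes brevican, a proteoglycan of the brain extracellular matrix. Bcan in the HDAC1-WT line gave 1.86, 1.72 and 1.4 CPM untreated and 5.97, 3.9 and 6.53 CPM with OHT. Bcan in the HDAC1–E63R line gave 6.19, 5.99 and 5.95 CPM untreated and 5.88, 5.72 and 6.16 CPM with OHT. Bcan in the HDAC1–Y48E line gave 5.94, 8.54 and 6.78 CPM untreated and 16.3, 15.1 and 15.2 CPM with OHT. The untreated HDAC1-WT libraries were the 3 lowest and the OHT-treated HDAC1–Y48E libraries the 3 highest. Bcan rose 3.27-fold with HDAC1-WT (log2 fold change 1.71 ± 0.27 SE, adjusted p in edgeR = 0.00631), a call lost in 5 of the 6 fits that left out 1 library of that line, and 2.19-fold with HDAC1–Y48E (log2 fold change 1.13 ± 0.24 SE, adjusted p in edgeR = 0.000522). Celsr3 was at 3.53 to 7.3 CPM untreated and 8.96 to 15.2 CPM with OHT in the HDAC1-WT line, 8.23 to 16.8 and 15.4 to 17.9 CPM in the HDAC1–E63R line, and 7.32 to 12 and 15.9 to 18.9 CPM in the HDAC1–Y48E line. Celsr3 encodes a cadherin of axon guidance, and its adjusted p was 0.168 with HDAC1-WT and 0.0227 with HDAC1–Y48E in edgeR.

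Gad1 (chr2:70553072-70602014, plus strand), which encodes the enzyme that makes GABA, fell with HDAC1–Y48E. Gad1 in the HDAC1-WT line gave 1.02, 3.99 and 3.2 CPM untreated and 3.27, 2.99 and 3.18 CPM with OHT. Gad1 in the HDAC1–E63R line gave 5.73, 4.86 and 5.95 CPM untreated and 2.81, 2.0 and 1.57 CPM with OHT. Gad1 in the HDAC1–Y48E line gave 4.51, 6.49 and 4.74 CPM untreated and 1.2, 2.45 and 1.17 CPM with OHT. Untreated libraries of both mutant lines were the highest, and the OHT-treated ones did not overlap them. The fall was 3.24-fold with HDAC1–Y48E (log2 fold change -1.69 ± 0.44 SE, adjusted p in edgeR = 0.00353) and was lost without untreated replicate 2, OHT-treated replicate 1 or OHT-treated replicate 3 (-1.52, -1.53 and -1.51 in log2). Against OHT-treated HDAC1-WT cells it was -0.96 (adjusted p in edgeR = 0.0845) and not called. With HDAC1–E63R the gene missed the limit (log2 fold change -1.36, adjusted p in edgeR = 0.0226), and without untreated replicate 3 it was -1.31 (adjusted p in edgeR = 0.0333).

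Of the 4 neural progenitor members, Sox1 and Pax6 fell and Nes rose with HDAC1–Y48E, and none was called in the other 2 lines (with HDAC1–Y48E 10.8% of all genes rose and 5.84% fell). Sox1 (chr8:12395295-12400126, plus strand) is an early transcription factor of the neural plate. Sox1 in the HDAC1-WT line gave 14.7, 12.2 and 12.6 CPM untreated and 15.4, 9.25 and 8.65 CPM with OHT. Sox1 in the HDAC1–E63R line gave 8.13, 11.4 and 8.81 CPM untreated and 4.14, 5.81 and 4.6 CPM with OHT. Sox1 in the HDAC1–Y48E line gave 14.3, 12.1 and 11.6 CPM untreated and 4.72, 5.98 and 4.59 CPM with OHT. Its levels after OHT were the lowest in both mutant lines. Sox1 fell 2.48-fold with HDAC1–Y48E (log2 fold change -1.31 ± 0.25 SE, adjusted p in edgeR = 0.000202). With HDAC1–E63R it passed the p limit just short of 2-fold (log2 fold change -0.96, adjusted p in edgeR = 0.00734), and without untreated replicate 3 it was -1.01 (adjusted p in edgeR = 0.00453).

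Pax6 (chr2:105668900-105697364, plus strand) encodes a paired-box factor of radial glia and the eye. Pax6 in the HDAC1-WT line gave 0.186, 2.54 and 0.6 CPM untreated and 0.578, 0.635 and 3.62 CPM with OHT. Pax6 in the HDAC1–E63R line gave 10.1, 8.81 and 10.1 CPM untreated and 8.86, 9.24 and 7.83 CPM with OHT. Pax6 in the HDAC1–Y48E line gave 9.68, 13.9 and 10.6 CPM untreated and 2.01, 2.54 and 1.71 CPM with OHT. Untreated libraries of both mutant lines were high, OHT-treated HDAC1–E63R libraries were too, and OHT-treated HDAC1–Y48E libraries fell within the range of the HDAC1-WT line. Pax6 fell 5.43-fold with HDAC1–Y48E (log2 fold change -2.44 ± 0.54 SE, adjusted p in edgeR = 0.000824), yet against OHT-treated HDAC1-WT cells the same libraries had a log2 fold change of 0.36 (adjusted p in edgeR = 0.654). Nes encodes nestin, the intermediate filament of neural progenitors. Nes in the HDAC1-WT line gave 14.3, 13.8 and 14.7 CPM untreated and 17.8, 13.4 and 15.2 CPM with OHT. Nes in the HDAC1–E63R line gave 30.6, 27.6 and 28.5 CPM untreated and 34.7, 33.3 and 29 CPM with OHT. Nes in the HDAC1–Y48E line gave 28.5, 23.8 and 27.5 CPM untreated and 56.6, 62.6 and 62.5 CPM with OHT. Nes was highest in the OHT-treated HDAC1–Y48E libraries and lowest in the HDAC1-WT line. It rose 2.28-fold with HDAC1–Y48E (log2 fold change 1.19 ± 0.13 SE, adjusted p in edgeR = 2.7e-07). Nes (chr3:87971078-87980451, plus strand, mm10) and Bcan (chr3:87987531-88000230, minus strand) lie next to each other, and both rose in that line. Neurog2, a proneural factor, had 11 counts in all 18 libraries together and was not tested.

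**Figure D3:**
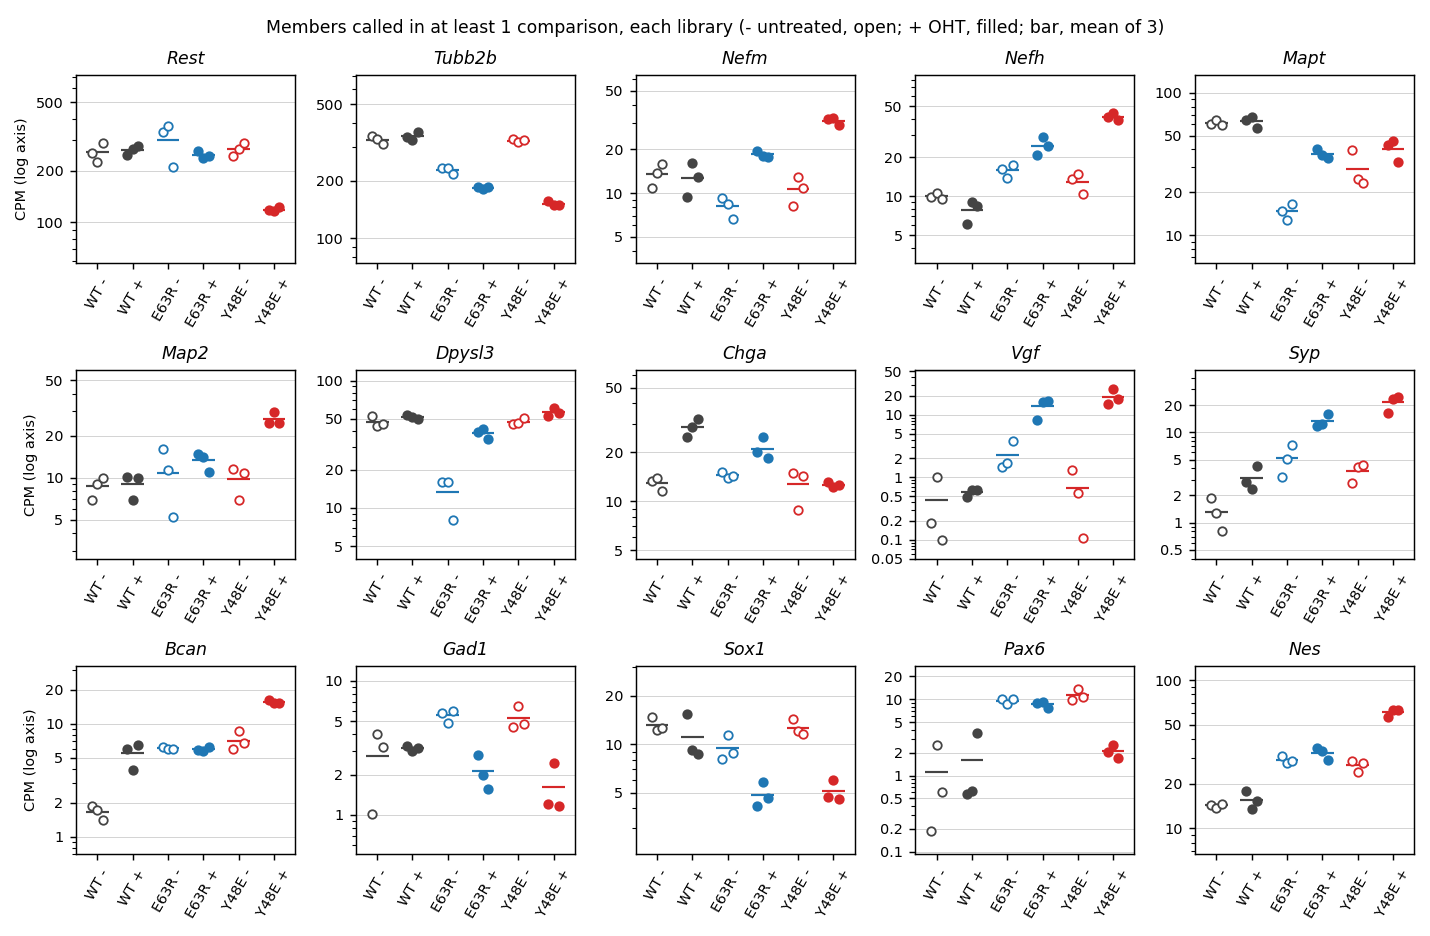
Level in CPM (log axis) of the 15 members called after OHT in at least 1 line, in each of the 18 libraries; minus marks untreated (open) and plus OHT-treated (filled) libraries, and bars are means of 3. Rest and Tubb2b are lowest in OHT-treated HDAC1–Y48E cells, Nefm, Nefh, Map2, Bcan and Nes are highest there, and Mapt, Dpysl3, Pax6 and Nes differ between the untreated lines.

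The difference between lines was tested directly, as the OHT effect in one line minus that in another. For HDAC1–Y48E against HDAC1-WT, 4 members had a higher effect (12.5% of those tested, against 4.65% of all genes) and 3 a lower one (9.38%, against 3.97%). The higher ones were Nefm (1.65 on the log2 scale, adjusted p in edgeR = 0.000308), Nefh (2.05, 5.23e-06), Vgf (4.45, 0.00274) and Nes (1.07, 0.000326). Lower were Rest (-1.21, 0.00013), Tubb2b (-1.16, 2.52e-07) and Chga (-1.14, 0.0032). The Vgf difference rested on untreated HDAC1-WT replicate 2, without which it was 2.92 (adjusted p in edgeR = 0.191). That of Chga was lost in 4 of 12 fits that left out 1 library (untreated or OHT-treated HDAC1-WT replicate 3, or untreated HDAC1–Y48E replicate 1 or 3), and that of Nes in 2, without OHT-treated HDAC1-WT replicate 2 (0.98) or untreated HDAC1–Y48E replicate 2 (just under 2-fold). Syp, called with HDAC1–Y48E and not with HDAC1-WT, had a difference of 1.29 (adjusted p in edgeR = 0.0671) that did not pass. Neither did Bcan (-0.58, adjusted p in edgeR = 0.265), which rose in both lines. Map2 (1.38, adjusted p in edgeR = 0.0173), Gad1 (-1.9, 0.029), Sox1 (-1.06, 0.0286) and Pax6 (-2.97, 0.0115), called with HDAC1–Y48E, did not pass either. Their responses were therefore not shown to differ from those with HDAC1-WT.

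For HDAC1–E63R against HDAC1-WT, 2 members had a higher effect (6.25%, against 1.25% of all genes) and 1 a lower one (3.12%, against 0.436%). They were Mapt (1.31, adjusted p in edgeR = 0.00188), Dpysl3 (1.39, 0.000967) and Bcan (-1.74, 0.00537). The Bcan difference was lost in 9 of 12 fits that left out 1 library. Leaving out untreated HDAC1–E63R replicate 3 kept these 3 and added Nefm (1.13, adjusted p in edgeR = 0.00695) and Nefh (1.07, adjusted p in edgeR = 0.00512). In that fit 1.88% of all genes had a higher effect and 0.61% a lower one. With all libraries, Nefm (1.26, adjusted p in edgeR = 0.0132), Vgf (2.17, 0.185) and Syp (0.13, 0.933), all called with HDAC1–E63R, did not pass as differences from HDAC1-WT. Between the mutant lines, the effect with HDAC1–Y48E was higher for Nes (1.03, 0.00169; 3.12% of tested members against 0.319% of all genes) and lower for Dpysl3 (-1.27, 0.00221; 3.12% against 0.99%). The Nes difference was lost in 3 of 12 such fits, without untreated HDAC1–Y48E replicate 2, untreated HDAC1–E63R replicate 1 or OHT-treated HDAC1–E63R replicate 3, with a lowest value of 0.95. Without untreated HDAC1–E63R replicate 3 Nes and Dpysl3 were still called, with Map2 (1.46, adjusted p in edgeR = 0.000802) and Pax6 (-2.31, adjusted p in edgeR = 0.00918) added. In that fit 0.938% of all genes had a higher effect and 1.45% a lower one. Rest, called with HDAC1–Y48E alone, had a difference of -0.87 between the mutant lines (adjusted p in edgeR = 0.0117), Vgf one of 2.29 (0.0793) and Syp one of 1.16 (0.136), so none of these 3 responses was shown to differ between them. The comparisons with HDAC1-WT share its 6 libraries.

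The lines already differed before OHT. Untreated HDAC1–E63R cells had 8 members higher than untreated HDAC1-WT cells (Vgf, Syp, Syt5, Elavl3, Celsr3, Bcan, Pax6 and Nes; against 3.32% of all genes) and 2 lower (Mapt and Dpysl3; against 4.33%). Untreated HDAC1–Y48E cells had 4 higher (Syp, Syt5, Bcan and Pax6; against 2.62% of all genes) and 1 lower (Mapt; against 2.95%). Pax6 differed most among those higher in both, with log2 differences of 3.09 (adjusted p in edgeR = 0.000309) for HDAC1–E63R and 3.33 (0.000193) for HDAC1–Y48E. The size of both Pax6 differences is imprecise. Its untreated HDAC1-WT libraries held between 2 and 28 counts, and only 2 of them were over the floor. Bcan differed by 1.85 (2.4e-05) and 2.08 (7.28e-06), Syp by 1.96 (0.000308) and 1.49 (0.00605), and Syt5 by 1.8 (0.00145) and 1.53 (0.00758). In the untreated HDAC1–E63R line, Vgf was higher by 2.36 (0.00815), Celsr3 by 1.12 (0.0053), Elavl3 by 1.02 (8.18e-06) and Nes by 1.02 (9.34e-06). Without untreated HDAC1–E63R replicate 3, Vgf missed the limit at 1.83 (adjusted p in edgeR = 0.019) and Stmn2 (lower, -1.0, adjusted p in edgeR = 1.32e-14) and Scg5 (higher, from 0 counts in untreated HDAC1-WT cells, adjusted p in edgeR = 0.0065) were added. In that fit 3.15% of all genes were higher and 3.84% lower.

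Mapt was lower in both untreated mutant lines than in untreated HDAC1-WT cells, with differences of -2.07 (adjusted p in edgeR = 2e-08) for HDAC1–E63R and -1.07 (8.01e-05) for HDAC1–Y48E in log2. Dpysl3 differed by -1.82 (9.83e-08) for HDAC1–E63R and by 0.0 (0.996) for HDAC1–Y48E. Leaving out 1 library at a time, the untreated calls of Pax6 and Bcan were kept in both lines, whereas with HDAC1–Y48E those of Syp and Syt5 were lost in several fits and that of Mapt without untreated HDAC1–Y48E replicate 2 or 3, and with HDAC1–E63R those of Vgf, Syt5, Celsr3, Elavl3 and Nes were each lost at least once. For these members the OHT effect within a line and the level after OHT are different statements. Mapt after OHT averaged 37.3 ± 2.95 CPM with HDAC1–E63R and 62.9 ± 5.35 CPM with HDAC1-WT (SD, n = 3), and Pax6 after OHT averaged 2.09 ± 0.42 CPM with HDAC1–Y48E and 1.61 ± 1.74 CPM with HDAC1-WT. For Rest, Nefm, Nefh, Map2, Vgf, Syp, Bcan, Tubb2b, Sox1 and Nes the HDAC1–Y48E change kept its direction and its call against either reference. Whether the untreated differences belong to the transgenes or to the lines cannot be told apart.

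Other genes of neurons were listed with earlier results of these data known. Of 88 such genes, 76 were tested. In the HDAC1-WT line 1 rose (1.32%) and 0 fell, in the HDAC1–E63R line 7 rose (9.21%) and 0 fell, and in the HDAC1–Y48E line 21 rose (27.6%) and 7 fell (9.21%), with the background shares given above. The list median of the log2 fold change was 0.33, 0.49 and 0.86. When untreated HDAC1–E63R replicate 3 was left out, 5 of 79 rose (6.33%) and 1 fell (1.27%) in the HDAC1–E63R line. With HDAC1–Y48E, Cacna1b, a presynaptic calcium channel gene, rose from 5.83 ± 0.8 to 52.9 ± 5.67 CPM (SD, n = 3; log2 fold change 3.18, adjusted p in edgeR = 5.46e-10). Mapk8ip2, a kinase scaffold gene (1.34), and Tubb4a, a beta-tubulin gene (2.82), rose too, whereas Atp2b2, a calcium pump gene, fell (-1.59). Mapk8ip2 also rose in the HDAC1-WT line (log2 fold change 1.01) and, at the 2-fold limit, in the HDAC1–E63R line, where it was 0.91 (adjusted p in edgeR = 0.000159) without untreated replicate 3. The summed level of the 88 genes ranged from 1360 to 1410 CPM untreated and from 1470 to 1520 CPM with OHT in the HDAC1–Y48E line. Dcx and Gria2 had no count in any of those 6 libraries.

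Among progenitor genes outside the members, those called with HDAC1–Y48E fell. Of 52 listed, 40 were tested, 0 were called in the HDAC1-WT line, 2 rose and 3 fell (5% and 7.5%) in the HDAC1–E63R line, and 0 rose and 6 fell (15%) in the HDAC1–Y48E line, with the background shares given above. The E63R counts without untreated replicate 3 were 1 higher and 4 lower of 41 tested. Msi1, which encodes an RNA-binding protein of neural stem cells, fell from 124 ± 3.75 to 47.5 ± 1.98 CPM with HDAC1–Y48E (log2 fold change -1.38, adjusted p in edgeR = 2.46e-10). Its relative Msi2 (-1.17), the Notch ligand gene Dll1 (-2.0) and the neuronal differentiation factor Neurod1 (-2.23) fell in the same line. Dll1 and Neurod1 fell from untreated levels of 41.2 ± 3.22 and 12.8 ± 1.09 CPM, above the 7.14 ± 1.64 and 3.36 ± 0.784 CPM of untreated HDAC1-WT cells. Of 18 glial genes, 15 were tested. Mbp, the myelin basic protein gene, rose (2.1), as did Ncan, a proteoglycan gene (1.89), and Gja1, the connexin 43 gene (-1.19), and Vcan, the versican gene (-2.05), fell with HDAC1–Y48E. In that line 3 rose and 2 fell (20% and 13.3%, against 10.8% and 5.84% of all genes). With HDAC1–E63R 2 glial genes rose (13.3%, against 4.74% of all genes) and 0 fell. Without untreated replicate 3 these counts were the same (12.5%, against 4.71%), and with HDAC1-WT 0 were called. Of the 18 glial genes, Aqp4, S100b and Slc1a2 had no count in the untreated HDAC1–Y48E libraries, and S100b alone had none there with OHT. The other listed glial genes had counts in both of these groups.

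Markers of other cell types moved with these results, and their part in them was not tested. Of all tested genes, 10.8% rose and 5.84% fell with HDAC1–Y48E, and 4.74% rose and 1.18% fell with HDAC1–E63R. Without untreated HDAC1–E63R replicate 3 the latter shares were 4.71% and 1.03%. Primitive endoderm and neural crest markers had 9.09% and 10% called in each direction with HDAC1–Y48E, which is 1 gene each way. In the HDAC1–Y48E line 11 of 18 pluripotency markers fell and 1 rose (list median log2 fold change -1.10). The summed level of 17 trophoblast markers went from between 232 and 247 CPM untreated to between 1360 and 1460 CPM with OHT in that line, where 6 of 13 tested rose and 0 fell, and Tpbpa and Prl2c2 were at 0 in both groups. In the HDAC1–E63R line the trophoblast sum went from between 214 and 275 to between 528 and 569 CPM (4 rose and 1 fell), and without untreated replicate 3 from between 214 and 238 CPM (5 rose and 0 fell). Of the primed epiblast markers, 3 of 11 tested rose with HDAC1–Y48E, and their sum went from between 427 and 467 to between 1000 and 1090 CPM. For 14 primitive endoderm markers it ranged from 673 to 701 CPM untreated and from 647 to 661 CPM with OHT (1 rose and 1 fell), and for 14 mesendoderm markers from 58.4 to 62.4 and from 91.7 to 95.8 CPM (3 rose and 1 fell), with Cer1 at 0. Neural crest markers summed to between 48.2 and 52.7 CPM untreated and 64.2 and 81.3 CPM with OHT (1 rose and 1 fell of 10 tested), and fibroblast markers to between 47.8 and 56.0 and between 103 and 113 CPM (2 rose of 5 tested), with Lum and Fap at 0. In the HDAC1–E63R line 2 pluripotency markers fell, and of the primed epiblast, primitive endoderm, mesendoderm, neural crest and fibroblast lists 2 genes each rose, with 1 mesendoderm marker lower. In that line without untreated replicate 3, 1 pluripotency marker fell, 1 primed epiblast, 0 primitive endoderm, 2 mesendoderm, 3 neural crest and 2 fibroblast markers rose, and 1 mesendoderm marker fell. In the HDAC1-WT line none of these marker lists had a called gene.

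**Figure D4:**
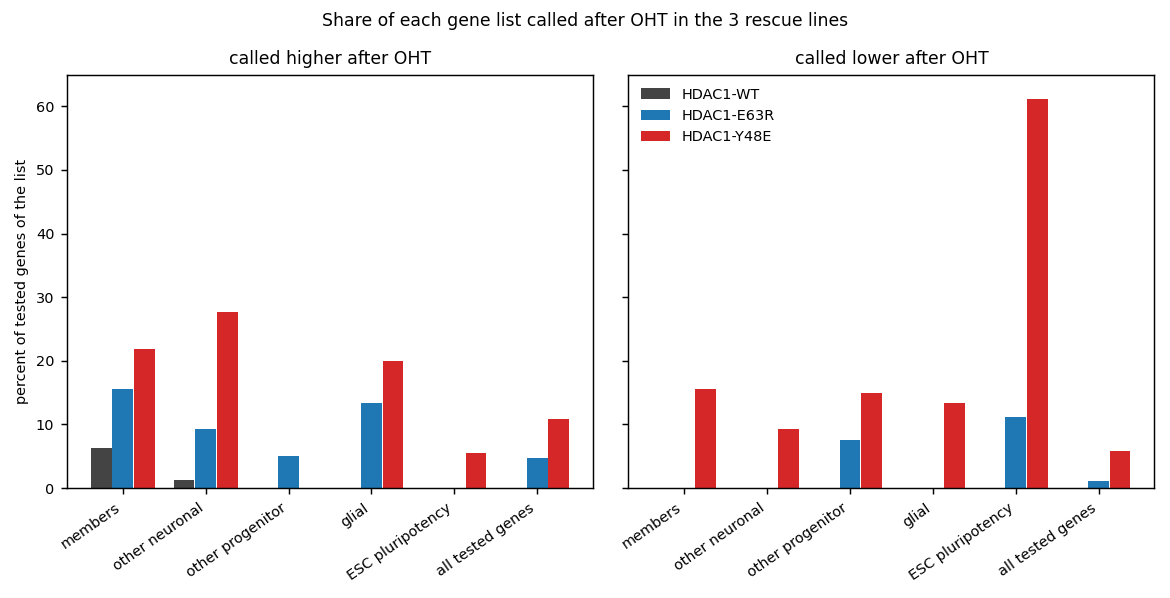
Percent of the tested genes of each list called higher (left) or lower (right) after OHT in the 3 rescue lines, beside all 18791 tested genes; bars have no error because each is a share of 1 list. With HDAC1–Y48E the members have 21.9% higher and 15.6% lower, other neuronal genes 27.6% and 9.21%, other progenitor genes 0 and 15%, and the pluripotency markers 5.56% and 61.1%.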

How the data were processed

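The analysis began from RNA-seq gene counts of 18 libraries. The deposited files hold whole-number read counts per gene symbol that the authors made, 1 file per library, with no normalization. The submitters' processing notes name HISAT2 2.1.0, SAMtools 1.9 and HTSeq (version not given) with build mm10, while the annotation and the strand setting of the counting are not given in the sources used here. GENCODE M21 (mm10) gave the gene positions and exon lengths used in the report. The 5 entries of each file that name no gene held 59.4% to 61.2% of its total (42.9% to 45.9% for reads in no feature) and were left out of library sizes and tests.

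Counts were scaled by TMM and fitted in 1 quasi-likelihood model with a mean for each of the 6 groups (edgeR 4.0.16, limma 3.58.1, R 4.3.3), over the 18791 genes that passed filterByExpr. Adjusted p-values are Benjamini-Hochberg values over all of these genes, and a call needed an adjusted p under 0.01 and a change over 2-fold. The SE of a log2 fold change was taken from its test, as the absolute change divided by the square root of the quasi-likelihood F statistic. It is therefore approximate. Depth was 9019615 to 11454638 counts on genes and limits the low members most. The members and gene lists were chosen with earlier results of these data known. Values in every library were given for Rest and each member called after OHT or in a difference between lines, group ranges for other members that reached 1 CPM in a group mean, and counts for the rest. From each of the other neuronal, progenitor and glial lists, the 4 called genes with the smallest adjusted p in the HDAC1–Y48E line were named, and 6 genes of the REST machinery were named whatever they did. The alternatives were DESeq2 1.42.0, RLE size factors, no filter on low counts, no fold limit, only the libraries compared, the OHT-treated HDAC1-WT reference, a replicate block and leaving out each library. The fitting code was tested on simulated data. Promoter windows came from RefSeq, and the search of transcripts was added after the promoter search had been seen.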

Additional observations from a re-analysis of the deposited data

Results flagged for a closer look

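The following member responses to OHT differed between rescue lines, each tested as the difference between the OHT effects of a pair of lines in the edgeR model (adjusted p under 0.01 and over 2-fold). Between HDAC1–E63R and HDAC1-WT, Mapt differed by 1.31, Dpysl3 by 1.39 and Bcan by -1.74 on the log2 scale. Between HDAC1–Y48E and HDAC1-WT, the difference was -1.21 for Rest, -1.16 for Tubb2b, 1.65 for Nefm, 2.05 for Nefh, -1.14 for Chga, 4.45 for Vgf and 1.07 for Nes. Between HDAC1–Y48E and HDAC1–E63R it was -1.27 for Dpysl3 and 1.03 for Nes. Their causes were not tested.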

How the results depend on the processing

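Of 31 member results recomputed, 15 kept their direction and call under every alternative run, among them Rest, Tubb2b, Nefm, Nefh, Map2, Vgf, Syp, Bcan, Sox1 and Nes after OHT with HDAC1–Y48E. With OHT-treated HDAC1-WT cells as reference, 3 reversed: Mapt (-0.75) and Dpysl3 (-0.43) with HDAC1–E63R and Pax6 (0.36) with HDAC1–Y48E. That reference gave 9 calls with HDAC1–E63R in place of 5. The HDAC1–E63R calls numbered 8 with no fold limit and 1 in a fit of only the libraries compared, which also gave 1 call in place of 3 for the difference between HDAC1–E63R and HDAC1-WT and 4 in place of 10 between their untreated cells. With no filter on low counts the mutant lines differed in 4 members in place of 2. For that fit, the OHT-treated HDAC1-WT reference and the fits of only the libraries compared, the share of all genes called was not taken. These counts therefore have no background beside them. The 2 calls with HDAC1-WT became 0 with the replicate block. Calls ranged over the fits that left out 1 library from 0 to 1 with HDAC1-WT, 4 to 7 with HDAC1–E63R, 11 to 12 with HDAC1–Y48E, 2 to 5 for HDAC1–E63R against HDAC1-WT, 6 to 8 for HDAC1–Y48E against HDAC1-WT, 1 to 4 between the mutant lines, 7 to 11 between untreated HDAC1–E63R and HDAC1-WT cells and 2 to 4 between untreated HDAC1–Y48E and HDAC1-WT cells. Over the fits that left out 1 library, the share of all genes with a higher effect moved too. It went from 0.779% to 1.88% for HDAC1–E63R against HDAC1-WT and from 0.212% to 0.938% between the mutant lines. The causes were not tested.

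The replicate numbers did not pair the libraries, since deviations of same-numbered libraries correlated between -0.0217 and 0.038. The replicate block left the member counts of the other 7 comparisons as they were, and over all genes it called 5, 1031 and 3027 after OHT with HDAC1-WT, HDAC1–E63R and HDAC1–Y48E. Depth limits Vgf, Pax6, Scg3, Scg5, Snap25, Syt4 and the 4 untested members.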
